A study of Mus musculus with 13 samples.

Results

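The inhibitors of cyclin-dependent kinases (CDKs) were followed across 13 melanomas through 8 Affymetrix probe sets of 7 genes, out of 22690 probe sets in the deposited table, which is fewer than the array design named in the methods carries. They were Cdkn2a (1450140_a_at), Cdkn2b (1449152_at), Cdkn2c (1416868_at), Cdkn2d (1416253_at), Cdkn1b (1419497_at), Cdkn1c (1417649_at) and Cdkn1a, which had a pair of probe sets (1421679_a_at and 1424638_at). The members were chosen by gene family, with earlier results of these data known. Each array held RNA of 1 melanoma from a mouse that carried an HGF/SF transgene under a metallothionein promoter and an inactivating mutation specific to ARF or to INK4a. The pups had been exposed to UV once at 3.5 days of age, and their background was about 90% FVB/N and 10% C57BL/6. By the genotype labels, 5 tumors were ARF heterozygous, 1 was ARF null, 3 were INK4a heterozygous and 4 were INK4a null, so that 6 ARF-deficient tumors stood against 7 INK4a-deficient tumors. The titles of the 6 ARF tumors name Ink4a, while their genotype labels name ARF, and the genotype labels were used. A deposited list of scores has column names that match these labels. They give p19 (ARF) for the same 6 tumors and p16 (INK4a) for the other 7. No group without either mutation was measured, and the sources used here give neither the age at harvest nor the mouse that bore each tumor. The p-values therefore measure the spread between tumors, of which some may share a mouse.

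CDK inhibitors hold back the cell cycle and fall into 2 families. The INK4 proteins, encoded by Cdkn2a, Cdkn2b, Cdkn2c and Cdkn2d, bind the G1 kinases CDK4 and CDK6 and keep the retinoblastoma protein active. The CIP/KIP proteins, encoded by Cdkn1a (p21), Cdkn1b (p27) and Cdkn1c (p57), act on cyclin-CDK complexes of a wider range. Cdkn2a is unusual in that alternative first exons, read in different frames on shared downstream exons, encode both p16INK4a and p19ARF. ARF is not a CDK inhibitor: it binds MDM2 and so stabilizes p53, which in turn induces Cdkn1a. Loss of CDKN2A is a common event in human melanoma.

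In the RefSeq annotation of mouse build GRCm38.p6, Cdkn2a lay at chr4:89274473-89294619 on the minus strand and Cdkn2b at chr4:89306289-89311032, 11669 bases apart. Cdkn2c was on the same chromosome at chr4:109660876-109666756. The other members were dispersed, with Cdkn1a at chr17:29090979-29100722, Cdkn1b at chr6:134920401-134925525, Cdkn1c at chr7:143458339-143461059 and Cdkn2d at chr9:21288459-21291421. The windows from 250 bases before to 50 bases after the starts of the alternative first exons of Cdkn2a are shown because the mutations compared here separate the products of these exons. Their starts were 12427 bases apart. Capitals mark the GC box, GGGCGG, found on either strand, a motif bound by Sp1.
Cdkn2a exon 1-beta (ARF), chr4:89294570-89294869, minus strand: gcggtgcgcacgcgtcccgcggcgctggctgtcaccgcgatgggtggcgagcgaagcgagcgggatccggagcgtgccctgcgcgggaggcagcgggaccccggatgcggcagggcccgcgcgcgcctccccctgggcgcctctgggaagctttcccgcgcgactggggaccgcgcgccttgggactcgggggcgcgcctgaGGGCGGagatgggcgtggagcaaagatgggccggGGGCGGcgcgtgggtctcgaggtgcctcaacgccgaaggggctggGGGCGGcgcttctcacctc
Cdkn2a exon 1-alpha (INK4a), chr4:89282143-89282442, minus strand: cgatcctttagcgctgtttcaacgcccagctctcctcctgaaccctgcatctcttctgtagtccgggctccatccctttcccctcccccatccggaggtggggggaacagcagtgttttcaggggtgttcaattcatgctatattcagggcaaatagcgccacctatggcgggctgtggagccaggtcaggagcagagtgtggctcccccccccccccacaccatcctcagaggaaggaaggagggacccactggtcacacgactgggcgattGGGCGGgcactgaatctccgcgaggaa
The ARF window was 77.0% G and C, with 45 CpG dinucleotides and 3 GC boxes. The INK4a window was 60.3% G and C, with 12 CpG dinucleotides and 1 GC box. Over the 32544 mouse promoter windows of the same length, the median was 53% G and C with 7 CpG dinucleotides, and 35.9% of windows held a GC box. Of the 7 genes, 6 had such windows, 9 in all, and their GC boxes ranged from 0 in 1 of the windows of Cdkn1a and of Cdkn2c to 5 in Cdkn2d. The matches are a description of the sequence, and no factor binding was measured.

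The deposited values are logarithms set relative to the median of the 13 tumors for each probe set, so that 0 is the middle tumor and no level of expression is known. They were read as log2, since the base is not stated. Natural logarithms would make each difference 1.44 times larger on the log2 scale. For Cdkn2a, which a deposited list of probe sets also gives as a score per array, the score rose by 1.45 per unit of the value (r = 0.994), and over 121 listed probe sets the median slope was 1.34 (quartiles 1.22 and 1.54). The scale of the score is not stated, so the base was not settled. Values are given below as log2 relative to the median, and levels cannot be compared between genes. In whole-tumor RNA, fewer cells of a type and less RNA per cell cannot be told apart. The sources used here do not give the positions of the probes within Cdkn2a. Its values were therefore not assigned to the INK4a or the ARF transcript and do not check the genotype labels.

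Cdkn2a was higher in ARF-deficient than in INK4a-deficient tumors in most samples, although the difference did not pass adjustment over all probe sets. The ARF heterozygous tumors 12, 13, 14, 8 and 9 had values of 2.41, 2.10, 0.56, 2.13 and 0, and the ARF null tumor 10 had 1.27. The INK4a heterozygous tumors 15, 5.2 and 6.2 had values of -2.20, -1.21 and -1.23. The INK4a null tumors 1.2, 2.2, 3 and 7.2 had values of -2.38, -0.60, 1.0 and -1.23. Thus 5 of 6 ARF-deficient tumors were above the median and 6 of 7 INK4a-deficient tumors below it. The groups overlapped through INK4a null tumor 3, which was above ARF heterozygous tumors 14 and 9.

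**Figure D1:**
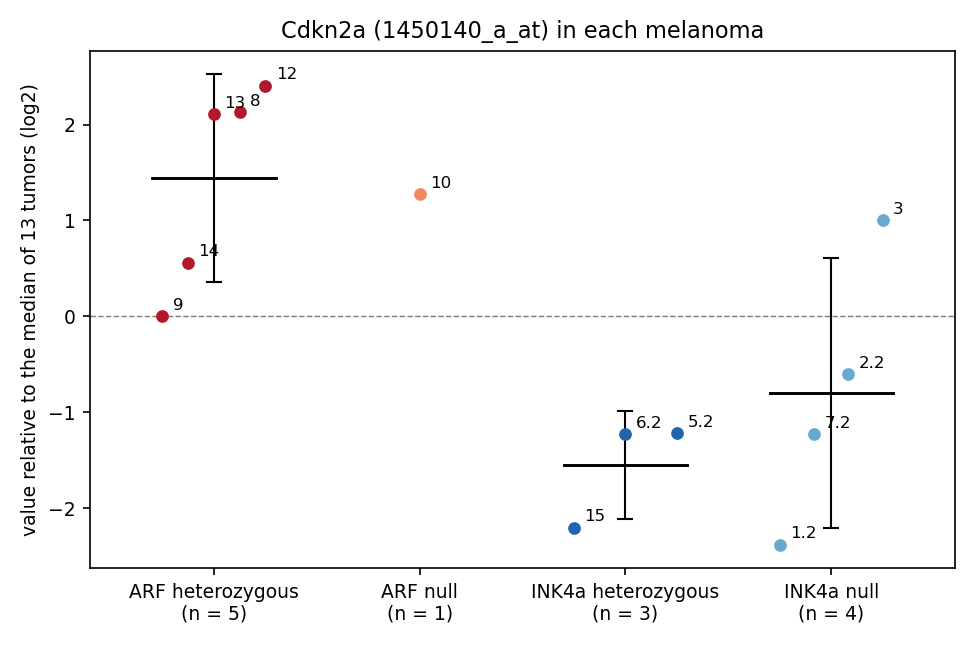
Cdkn2a (1450140_a_at) in each of the 13 melanomas, as log2 relative to the median tumor (vertical axis), by genotype group (horizontal axis). Points are single tumors with their numbers, horizontal bars are means and error bars are SDs, with none for the single ARF null tumor. All ARF-deficient tumors are at 0 or above, and INK4a null tumor 3 at 1.0 is the INK4a-deficient tumor above the median.

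In the 6 ARF-deficient tumors Cdkn2a averaged 1.41 ± 0.97 (SD), and in the 7 INK4a-deficient tumors -1.12 ± 1.12 (SD). The difference was 2.53 (SE 0.545, 95% interval 1.36 to 3.71), which is 5.79-fold if the logs are base 2 and 12.6-fold if they are natural. The limma fit over 22626 probe sets gave p = 0.000467 and an adjusted p (Benjamini-Hochberg) of 0.891, and the exact permutation test of this value alone, over all splits into 6 and 7, gave p = 0.0035 (two-sided). The difference ranked 11 by size and 9 by p among all probe sets. At an adjusted p under 0.05, 0 of the 8 members and 0% of all probe sets were called. At an unadjusted p under 0.05, 1 member (Cdkn2a) was called, against 4.93% of all probe sets (1115). In 0 members and 0.11% of all probe sets did the groups not overlap.

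The contrast was of similar size among heterozygous tumors. The 5 ARF heterozygous tumors (1.44 ± 1.08, SD) all lay above the 3 INK4a heterozygous tumors (-1.55 ± 0.57, SD). The difference of 2.99 (SE 0.745, 95% interval 1.35 to 4.63) was the largest of any probe set in this comparison, and corresponds to 7.94-fold in base 2 and 19.9-fold for natural logs. It had p = 0.00207 and an adjusted p of 0.161 in limma, and p = 0.0357 in the exact permutation test, the smallest that 5 against 3 tumors allow. Groups did not overlap in 1 of 8 members, against 7.85% of all probe sets.

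Among tumors with the same mutation, ARF or INK4a, no difference in Cdkn2a by the number of mutant alleles passed the test. INK4a null tumors (-0.80 ± 1.41, SD, n = 4) differed from INK4a heterozygous tumors by 0.75 (SE 0.78, 95% interval -0.97 to 2.46), with an adjusted p of 0.757 in limma and an exact permutation p of 0.514. Leaving out INK4a null tumor 3 brought that difference to 0.15, and leaving out tumor 1.2 to 1.27. The ARF null tumor, at 1.27, was within the range of the ARF heterozygous tumors, which were higher on average by 0.17 (95% interval -2.29 to 2.63). In order, the means were 1.44 in ARF heterozygous, 1.27 in ARF null, -0.80 in INK4a null and -1.55 in INK4a heterozygous tumors. Neither the upper nor the lower neighboring pair differed beyond its spread, and ARF null against INK4a null had an interval of -0.44 to 4.59.

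Leaving out each tumor in turn gave a pooled difference in Cdkn2a of 2.32 to 2.89. The highest value was that without INK4a null tumor 3 (adjusted p = 0.346, limma). Since the overlap ran through that tumor alone, leaving it out had to end the overlap. Without it, groups did not overlap in 0.354% of all probe sets. All 5 tumors whose numbers have a decimal ending were INK4a-deficient, and what the ending stands for is not given. Among the tumors without one, 6 ARF-deficient and 2 INK4a-deficient, the difference was 2.01 and 0 members had an unadjusted p under 0.05. A list of 122 probe sets was deposited too, chosen by the authors on these same arrays, with a score per array whose scale is not stated. Of the 8 members 1 was in it, Cdkn2a, with mean scores of 5.42 in ARF-deficient and 1.80 in INK4a-deficient tumors. Since the list was chosen on these samples, it is not independent evidence.

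The other INK4 genes showed smaller differences. Cdkn2b, which neighbors Cdkn2a and encodes the TGF-beta-responsive inhibitor p15, had values of 0.35, 0, -0.28, 0.12 and 0.24 in ARF heterozygous tumors 12, 13, 14, 8 and 9, and -0.51 in the ARF null tumor. It had -0.31, -0.39 and 0.59 in INK4a heterozygous tumors 15, 5.2 and 6.2, and -2.73, 0.71, 0.39 and -0.59 in INK4a null tumors 1.2, 2.2, 3 and 7.2. The groups overlapped throughout, and tumor 1.2 was far below all the others. The difference between ARF-deficient and INK4a-deficient tumors was 0.32 (95% interval -0.68 to 1.32), and without tumor 1.2 it was -0.08. That tumor also had the lowest Cdkn2a value (-2.38).

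Cdkn2d, which encodes p19INK4d, a protein distinct from p19ARF, was lower in most ARF heterozygous tumors. Tumors 12, 13, 14, 8 and 9 had values of -0.37, -0.64, -0.41, 0.54 and -0.48, and the ARF null tumor had 0.29. The INK4a heterozygous tumors 15, 5.2 and 6.2 had 0.16, 0.75 and 0.21, and the INK4a null tumors 1.2, 2.2, 3 and 7.2 had 0.18, 0, -0.14 and 0. All ARF heterozygous tumors but tumor 8 were below every INK4a-deficient tumor. Between heterozygous tumors the difference was -0.64 (SE 0.24, 95% interval -1.18 to -0.10), with p = 0.0234 and an adjusted p of 0.305 in limma and an exact permutation p of 0.107. Leaving out 1 tumor moved it between -0.85 (without ARF heterozygous tumor 8) and -0.45 (without INK4a heterozygous tumor 5.2), and its unadjusted p was no longer under 0.05 without tumor 5.2 or ARF heterozygous tumor 13, or with heterozygous arrays alone. Among tumors without a decimal ending it was -0.43, but only 1 INK4a heterozygous tumor (15) remained there, so no call was read from it. Over all 13 tumors the difference between ARF-deficient and INK4a-deficient tumors was -0.34 (95% interval -0.78 to 0.10, adjusted p = 0.891, limma), and without tumor 8 it was -0.48, with an unadjusted p under 0.05. Without INK4a heterozygous tumor 5.2 it was -0.24.

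The Cdkn2d value moved with a measure of RNA quality. The beta-actin contrast, its 3' minus its 5' control probe set, which grows as RNA is degraded, correlated with Cdkn2d at Pearson's r = -0.79 (Spearman's rho = -0.80) across the 13 tumors. The correlation was -0.83 within ARF-deficient and -0.62 within INK4a-deficient tumors, and -0.64 without the 2 tumors farthest from the median. The beta-actin contrast was between -0.46 and -0.37 in the 3 INK4a heterozygous tumors, while INK4a null tumors ranged from -0.54 to 0.94 and ARF-deficient tumors from -0.36 to 1.49. With it as a covariate, the heterozygous difference in Cdkn2d was -0.26 and its unadjusted p was no longer under 0.05 (limma), and the pooled difference was -0.11 in place of -0.34. Cdkn2a had r = 0.46 with the beta-actin contrast (0.025 within ARF-deficient and 0.53 within INK4a-deficient tumors), and its pooled difference with the covariate was 2.31. Cdkn1a 1421679_a_at had r = -0.57, and its pooled difference with the covariate was -0.053. The other probe set of Cdkn1a, 1424638_at, had r = -0.17 (-0.45 without INK4a null tumor 1.2) and a pooled difference of -0.56 with the covariate. For Cdkn1b r was -0.47, for Cdkn1c 0.34, for Cdkn2b 0.32 and for Cdkn2c -0.07. These correlations are descriptions over tumors, and all probe sets of a tumor share its RNA quality and cell makeup.

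Cdkn2c, which encodes p18INK4c, had values from -0.89 to 0.38 in ARF heterozygous, from -0.42 to 0.30 in INK4a heterozygous and from -0.15 to 0.98 in INK4a null tumors, and -0.12 in the ARF null tumor. All groups overlapped, and the difference between ARF-deficient and INK4a-deficient tumors was -0.19 (95% interval -0.72 to 0.33). It was -0.035 without ARF heterozygous tumor 14, -0.049 without INK4a null tumor 1.2 and -0.29 without ARF heterozygous tumor 8, and quantile normalization gave -0.36. Its highest value was that of tumor 1.2, where Cdkn2b was lowest.

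Among the CIP/KIP genes, Cdkn1a varied most. By probe set 1424638_at, the INK4a heterozygous tumors 15, 5.2 and 6.2 had values of 0.30, 1.36 and 1.42, and the INK4a null tumors 1.2, 2.2, 3 and 7.2 had -2.12, 0.17, -0.16 and 0. The ARF heterozygous tumors 12, 13, 14, 8 and 9 had 0.12, -1.13, -0.76, 0.71 and -0.11, and the ARF null tumor had -1.68. All INK4a heterozygous tumors were above all INK4a null tumors, and the lowest values were those of INK4a null tumor 1.2 and the ARF null tumor.

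Between INK4a null and INK4a heterozygous tumors this probe set had a difference of -1.55 (SE 0.59, 95% interval -2.84 to -0.26). It had p = 0.0226 and an adjusted p of 0.291 in limma, and an exact permutation p of 0.0571, the smallest that 4 against 3 tumors allow. Without tumor 1.2 the difference was -1.02, and without INK4a heterozygous tumor 5.2 or 6.2 its unadjusted p was no longer under 0.05. With array weights it was -0.80, also no longer under 0.05. With the beta-actin covariate the difference was -1.62 (unadjusted p = 0.0357, limma). In this comparison 0 members and 0.0398% of all probe sets passed the adjusted threshold, 1 member against 13.1% had an unadjusted p under 0.05, and 1 member against 11.2% had groups that did not overlap. The members' shares were thus near the background. The second probe set, 1421679_a_at, had 1.03, 0.44 and 0.66 in INK4a heterozygous and -0.74, 0.84, 0.25 and -0.45 in INK4a null tumors, listed in the same order of tumors. These groups overlapped through tumor 2.2, and the difference was -0.73 (SE 0.51, adjusted p = 0.597, limma). With the beta-actin covariate it was -0.34.

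Between ARF heterozygous and INK4a heterozygous tumors, Cdkn1a 1424638_at differed by -1.26 (SE 0.56, 95% interval -2.49 to -0.03), with p = 0.0462 and an adjusted p of 0.375 in limma and an exact permutation p of 0.0714. Leaving out 1 tumor gave -1.62 to -1.04, and tumors without a decimal ending gave -0.53, a value that rests on tumor 15 as the 1 INK4a heterozygous tumor. Its unadjusted p was no longer under 0.05 with array weights (-0.95), with the beta-actin covariate (-1.36), or without any of INK4a heterozygous tumors 5.2 and 6.2, INK4a null tumors 3 and 7.2 and ARF heterozygous tumors 12, 13, 14 and 9. Probe set 1421679_a_at had -0.16, -0.80, 0, 1.47 and -0.57 in ARF heterozygous tumors 12, 13, 14, 8 and 9 and -0.37 in the ARF null tumor, and differed by -0.72 (SE 0.49, adjusted p = 0.564, limma), by -0.094 with the covariate, by -1.20 with array weights and by -1.09 without tumor 8, where, as with array weights, its unadjusted p was under 0.05. Tumor 8 was the highest of all 13 by this probe set. In this comparison 0 members and 0.00442% of all probe sets passed the adjusted threshold, while Cdkn2a, Cdkn1a 1424638_at and Cdkn2d, 3 of 8 members, had an unadjusted p under 0.05 against 13.1% of all probe sets. Without INK4a heterozygous tumor 5.2 or ARF heterozygous tumor 13 that count was 1, against 13.7% and 8.93% of all probe sets. Between all ARF-deficient and all INK4a-deficient tumors, the probe sets of Cdkn1a differed by -0.61 (95% interval -1.79 to 0.56) for 1424638_at and by -0.36 (adjusted p = 0.915, limma) for 1421679_a_at. Leaving out 1 tumor moved the former between -0.99 (without INK4a null tumor 1.2) and -0.37 (without the ARF null tumor), and the latter between -0.67 (without ARF heterozygous tumor 8) and -0.22 (without ARF heterozygous tumor 13). The unadjusted p was under 0.05 for 1424638_at without tumor 1.2, with zygosity as a covariate (-1.23) or in heterozygous tumors only (-1.26). For 1421679_a_at it was under 0.05 without tumor 8.

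**Figure D2:**
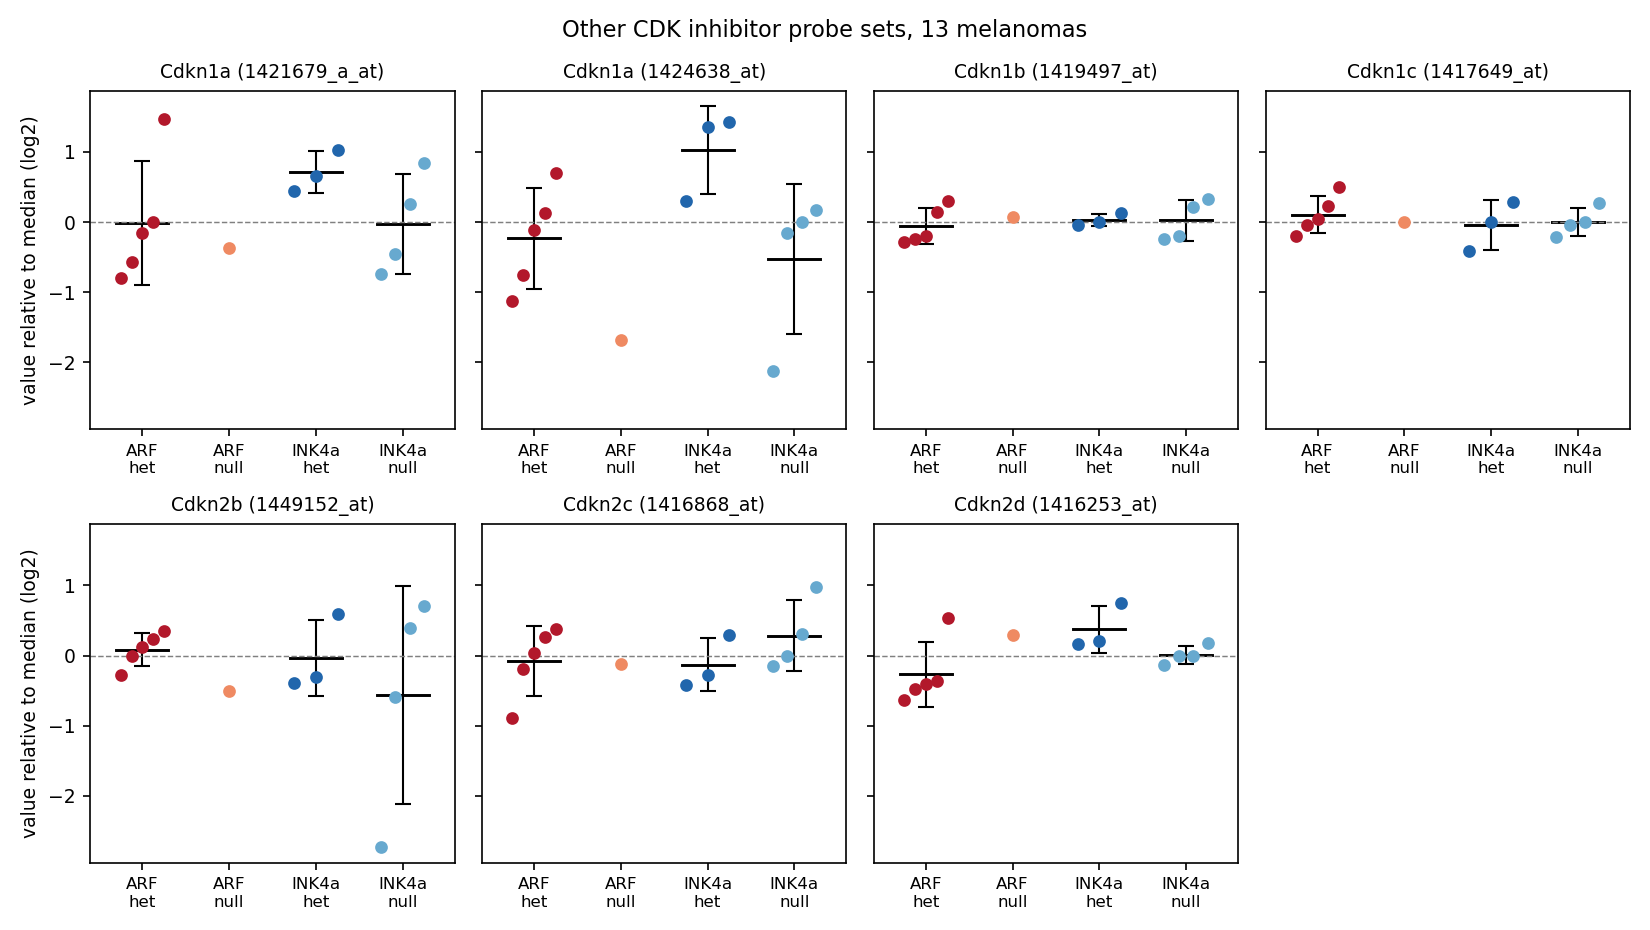
The 7 other CDK inhibitor probe sets in the 13 melanomas, as log2 relative to the median tumor (vertical axis), by genotype group (horizontal axis), where het is heterozygous. Points are tumors and bars are means with SDs. For Cdkn1a 1424638_at the INK4a heterozygous tumors (0.30 to 1.42) lie above all INK4a null tumors, and 1 INK4a null tumor lies at -2.73 for Cdkn2b.

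Cdkn1b and Cdkn1c varied least. Cdkn1b, whose product p27 restrains CDK2, ranged from -0.28 to 0.33 over the 13 tumors, and Cdkn1c, an imprinted gene, from -0.41 to 0.49. The difference between ARF-deficient and INK4a-deficient tumors was -0.06 (95% interval -0.33 to 0.21) for Cdkn1b and 0.11 (95% interval -0.19 to 0.40) for Cdkn1c. Leaving out 1 tumor gave -0.13 to -0.011 for Cdkn1b and 0.024 to 0.16 for Cdkn1c. For both genes these intervals leave out a difference of the size seen for Cdkn2a, as do those of all other members in this comparison.

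**Figure D3:**
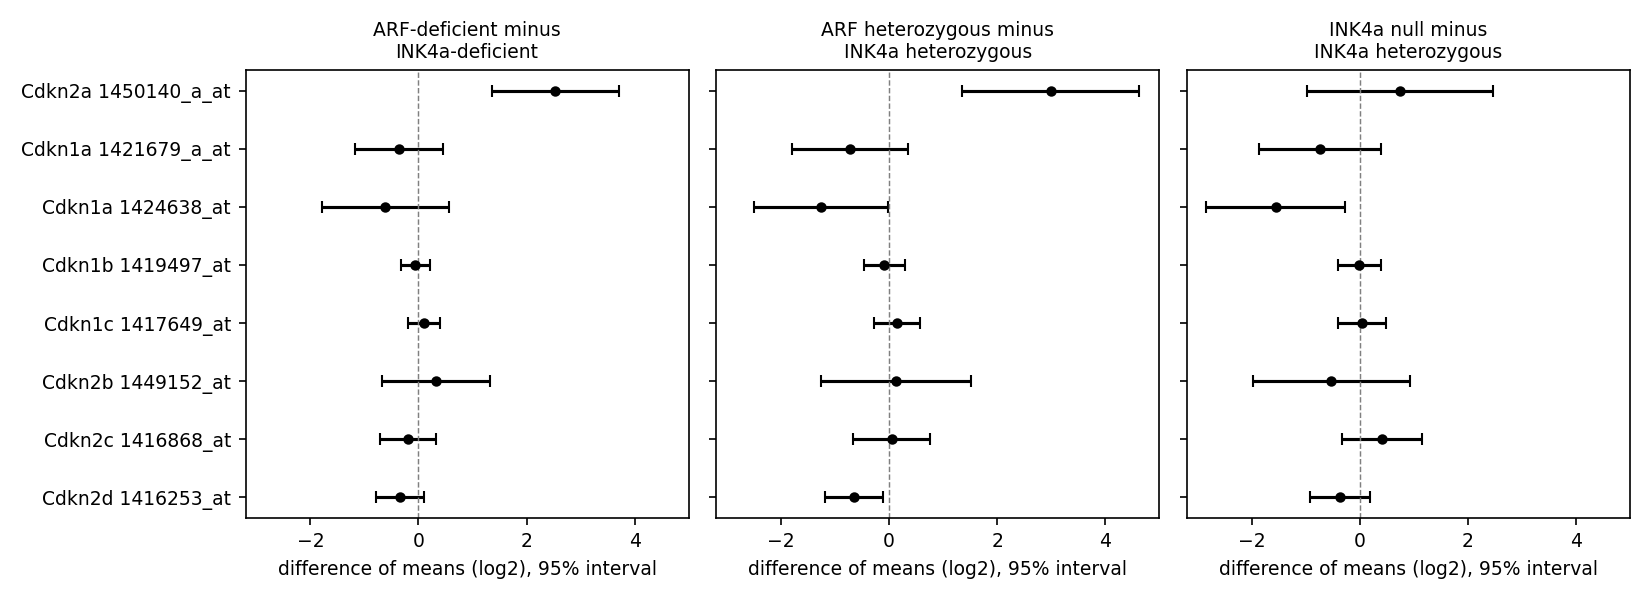
Differences of group means (horizontal axis, log2) for the 8 probe sets (vertical axis) in the 3 comparisons, with 95% intervals from limma. Cdkn2a stands apart at 2.53 in the pooled comparison and 2.99 among heterozygous tumors, and most other intervals include 0.

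The effect of the number of mutant alleles was not shown to differ between the ARF and the INK4a mutation, which both lie in Cdkn2a. The contrast of null minus heterozygous tumors in ARF against that in INK4a was -0.92 (SE 1.36, adjusted p = 0.971, limma) for Cdkn2a and 0.93 (SE 0.45, adjusted p = 0.919, limma) for Cdkn2d. The ARF null group was 1 array and was assumed to vary like the other groups. At an adjusted threshold 0 members and 0.00442% of all probe sets were called, and at an unadjusted p under 0.05, 0 members against 5.3%.

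Variation over the 13 tumors differed widely between the members. The SD was 1.66 for Cdkn2a, larger than that of 98.8% of probe sets, 1.06 for Cdkn1a 1424638_at, 0.87 for Cdkn2b and 0.72 for Cdkn1a 1421679_a_at. It was 0.45 for Cdkn2c, 0.41 for Cdkn2d, 0.24 for Cdkn1c and 0.22 for Cdkn1b, against a median of 0.27 over all probe sets, so that 6 of 8 were above it. The median size of the difference between ARF-deficient and INK4a-deficient tumors was 0.33 over the members and 0.11 over all probe sets. In signed terms 3 members were higher and 5 lower in ARF-deficient tumors, with a median of -0.13 against 0.01 over all probe sets.

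The members did not move as a block. Of their 28 pairs, 12 correlated positively across the 13 tumors, the median r was -0.09 and 3 exceeded 0.5. The highest was that of the pair of probe sets of Cdkn1a (r = 0.69, rho = 0.77), which was 0.68 within ARF-deficient and 0.69 within INK4a-deficient tumors. Cdkn1a 1424638_at followed Cdkn2b at 0.62, with 0.79 within ARF-deficient and 0.77 within INK4a-deficient tumors. Over all tumors but INK4a null tumor 1.2 it was 0.32. Cdkn1a 1421679_a_at followed Cdkn2d at 0.56, with 0.76 within ARF-deficient and 0.11 within INK4a-deficient tumors. The lowest was Cdkn2b with Cdkn2c at -0.54, which was 0.05 without tumor 1.2. Cdkn2a and its neighbor Cdkn2b had r = 0.46, and 0.18 without tumor 1.2. The probe sets of a tumor share its cell makeup and RNA quality, and no test was made.

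**Figure D4:**
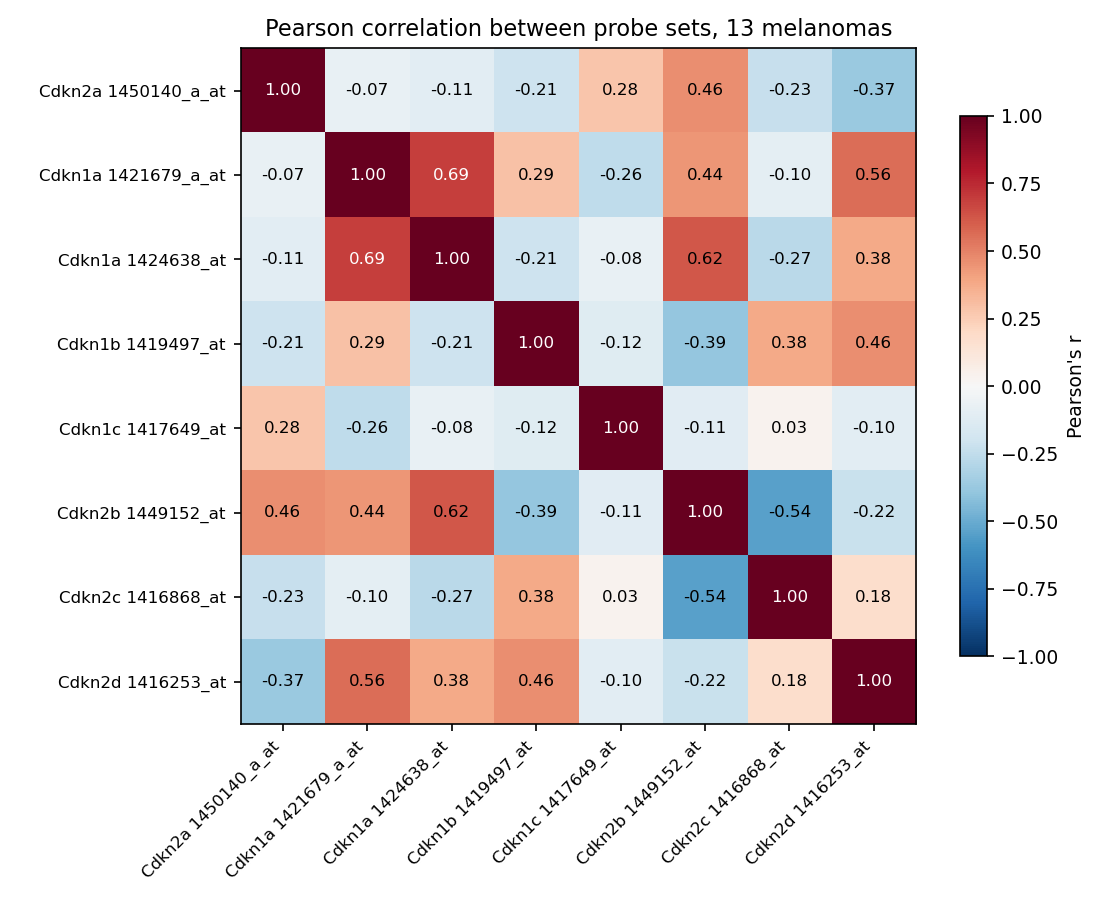
Pearson's r between the 8 probe sets (both axes) across the 13 melanomas, in color from -1 to 1 with the value in each cell. The pair of Cdkn1a probe sets has the highest r, 0.69, and Cdkn2b with Cdkn2c the lowest, -0.54.

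Among 4505 other probe sets with an SD of at least 0.5, those most like Cdkn2a were 1450863_a_at (r = 0.84) and 1417667_a_at (r = 0.81), and 3 exceeded 0.8. For Cdkn2d, 153 of 4506 exceeded 0.8, with the highest at 0.94, whereas for Cdkn2c 0 did, with the highest at 0.75. Cdkn1a 1424638_at had a highest r of 0.93. The sources used here do not name the genes of these probe sets.

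**Figure D5:**
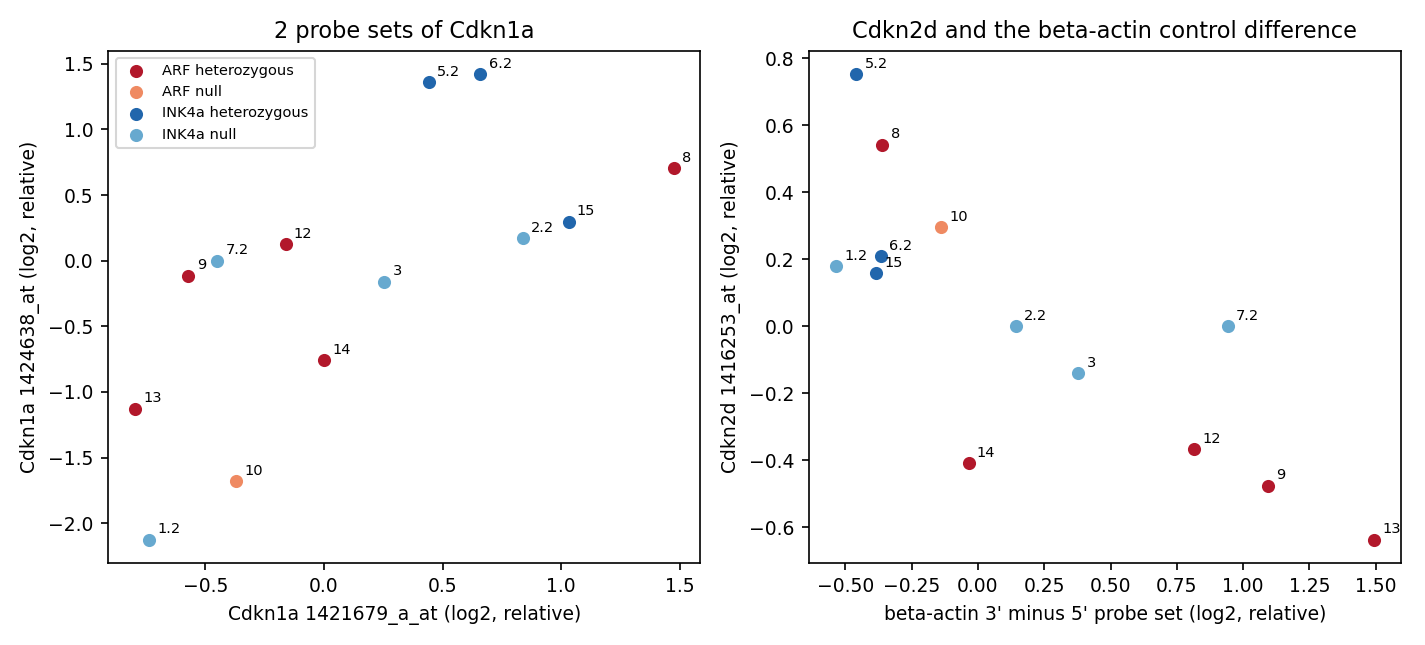
Left, the probe sets of Cdkn1a against each other. Right, Cdkn2d against the beta-actin contrast (3' minus 5' control probe set). Points are the 13 melanomas with their numbers, colored by genotype group, and all axes are log2 relative to the median. The left pair rises together (r = 0.69), and Cdkn2d falls as that contrast grows (r = -0.79).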

How the data were processed

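RNA of 13 melanomas was measured on 1 Affymetrix array each. The authors processed the arrays in GeneSpringGX and deposited log values, read here as log2 and centred row by row (the median of all 22690 rows was 0). The log base and the summarization were not given in the sources used here, nor was the scale of the score that the authors' list of 122 probe sets holds for each array. The groups hold few arrays, which limits the precision. Names of the 8 members came with the definition of the gene set. No table pairing other probe sets with genes was used, so partner genes, p53 targets, proliferation genes and cell type markers were not analysed here. Members and lists were chosen with earlier results of these data known.

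The 64 control probe sets were left out, and no filter on low values was possible on centred values. The remaining 22626 were compared in limma 3.58.1, run under R 4.3.3 (lmFit, then eBayes without a trend, two-sided, Benjamini-Hochberg, threshold 0.05). ARF-deficient and INK4a-deficient tumors formed 2 groups, and other comparisons used 4 groups over all 13 arrays. The fits were tested on simulated data with independent normal noise and added shifts. Shared RNA quality, cell makeup and tumors of a shared mouse were not simulated, so the fits were not tested under these. Single members were also compared by exact permutation (2 times the smaller one-sided p) and by the exact Mann-Whitney test that the methods name. All 8 members are named. Alternatives were other variance models, normalizations, array weights, covariates and sets of tumors. Promoter sequences are from RefSeq, GRCm38.p6.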

Additional observations from a re-analysis of the deposited data

Results flagged for a closer look

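A tumor far from the others of its group was found in 5 of the 32 combinations of member and group examined, and chance flags about 1 in 20. Pooled groups and the groups within them share tumors, so the combinations are not independent. No excess over that rate was read from the count. Cdkn1a 1421679_a_at was 1.47 in ARF heterozygous tumor 8, with the next ARF-deficient tumor at 0. In the same tumor Cdkn2d was 0.54, against -0.37 in the next ARF heterozygous tumor. INK4a null tumor 1.2 had -2.12 for Cdkn1a 1424638_at, with the next INK4a null tumor at -0.16, and -2.73 for Cdkn2b, with the next INK4a-deficient tumor at -0.59. Cdkn2d was 0.75 in INK4a heterozygous tumor 5.2, against 0.21 in the next INK4a-deficient tumor.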

How the results depend on the processing

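No paired analysis was possible because tumor numbers are never repeated between groups. As no member passed the adjusted threshold as fitted, none could be lost; over the members and alternatives 27 values reversed and 2 passed it anew. Cdkn2a kept its direction in all, from 2.01 to 2.99 (adjusted p from 0.185 to 1.0, limma) between ARF-deficient and INK4a-deficient tumors and from 2.66 to 3.42 between heterozygous tumors. Without decimal endings the latter was 3.64, but that leaves 5 ARF heterozygous tumors against 1 INK4a heterozygous tumor, assumed to vary like the other groups, and no stability is read from it here or below. The cause of the changes below was not tested.

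With array weights, the comparison of ARF heterozygous with INK4a heterozygous tumors called 1820 probe sets (5939 unadjusted) and 2 members, Cdkn2a (3.04, adjusted p = 0.0222, range over alternatives 0.0222 to 0.935) and Cdkn2d (-0.62, adjusted p = 0.0373, limma). Of the same 22626 probe sets and 8 members, INK4a null against heterozygous then called 3239 (6768 unadjusted, 0 members), in place of 9. That count was 14 with a variance trend, 1 after quantile normalization, and 0 with the beta-actin covariate, with INK4a arrays alone or by exact permutation (0 unadjusted, 0 members). Between heterozygous tumors it was 1 as fitted, 2 after median centring, and 0 after quantile normalization, with the covariate (1456 unadjusted, 1 member), with heterozygous arrays alone, by exact permutation (1777 unadjusted, 1 member) or, with the arm of 1 tumor, without decimal endings (1110 unadjusted, 1 member). In the pooled comparison, unadjusted calls went from 1115 of 22626 probe sets to 664 with the covariate and 665 without decimal endings (0 members). They went to 1708 with zygosity as a covariate (2 of 8 members) and 2785 in heterozygous tumors only (2 of 8 members). Cdkn1a 1424638_at was among the members called in both of the latter fits. Calls thus rose over all probe sets as well as among the members in these fits.

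Leaving out 1 tumor, pooled unadjusted calls ranged from 676 (2.99% of all probe sets, without ARF heterozygous tumor 13) to 1807 (7.99%, without INK4a null tumor 3). Members called unadjusted ranged from 1 to 3, with 3 against 7.83% of all probe sets without tumor 8. Members not overlapping ranged from 0 to 1 (0.119% to 0.354% of all probe sets). INK4a null against heterozygous ranged from 0 to 423 adjusted and 1691 to 4074 unadjusted calls (7.47% to 18% of all probe sets). Members called unadjusted ranged from 0 to 2, and members not overlapping from 1 to 3 (13.3% to 29.9% of all probe sets). Between heterozygous tumors, adjusted calls ranged from 0 to 104 and unadjusted calls from 2021 to 4039 (8.93% to 17.9% of all probe sets). Members called unadjusted ranged from 1 to 4, with 4 against 17.9% of all probe sets without tumor 8. Members not overlapping ranged from 1 to 4, against 8.39% to 18.2% of all probe sets (4 against 15.9% without tumor 8).

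The reversals were the following. Pooled, Cdkn1b became 0.020 (covariate) or 0.026 (no decimal endings), Cdkn2b -0.055 (no decimal endings), with leave-outs from -0.080 to 0.49, and Cdkn2c 0.050 (heterozygous only). For INK4a null against heterozygous, array weights gave Cdkn2b 0.051 in place of -0.52 and Cdkn2c -0.0028 in place of 0.42, the covariate Cdkn1b 0.11 and Cdkn1c -0.026, and leave-outs ranged from -0.10 to 0.088 for Cdkn1b, -0.14 to 0.21 for Cdkn1c and -0.94 to 0.21 for Cdkn2b. Between heterozygous tumors, Cdkn2c became -0.12 (quantile), -0.28 (array weights) or -0.38 (no decimal endings, 1 tumor), and the covariate gave Cdkn1b 0.10 and Cdkn2b -0.44. Leave-outs ranged from -0.056 to 0.44 for Cdkn2b, -0.094 to 0.27 for Cdkn2c and -0.039 to 0.31 for Cdkn1c.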
